A study of Mus musculus with 6 samples.

Results

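Cyp11a1 and 9 other genes of neurosteroid synthesis were followed in mouse cerebellum with and without Crebbp in the granule neuron lineage. Cyp11a1 headed the set because its level differed between the groups in these same arrays, so its own values are a description and carry no test. The other 9 genes (Star, Fdx1, Fdxr, Tspo, Cyp17a1, Cyp19a1, Srd5a1, Hsd17b10 and Cyp7b1) belong by function. Of the 10 genes, 7 had a probe set annotated to that symbol alone, with 8 probe sets between them, out of 22180 genes tested. Fdxr, Cyp19a1 and Srd5a1 were not analysed here. Where a gene had several probe sets, the one with the highest mean over the 6 arrays represented it.

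The arrays hold total RNA of whole cerebellum from mice at postnatal day 7. The 3 control arrays carry Math1Cre with wild-type Crebbp, and the 3 knockout arrays carry Math1Cre with both Crebbp alleles floxed (Math1Cre::CrebbpFl/Fl), so Cre is shared by both groups. Math1 (Atoh1) drives Cre in granule neuron precursors, which leaves Crebbp intact in most other cells of the tissue. Crebbp, the acetyltransferase and CREB coactivator that was targeted, fell from 11.95 ± 0.05 to 11.40 ± 0.07 on the log2 scale (SD, n = 3 each, limma adjusted p = 0.000354). In these bulk samples fewer cells of a type and less RNA per cell cannot be told apart. The labels do not state whether each array stands for its own animal, so a p-value here reflects only array-to-array spread, which may be partly technical.

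Steroid synthesis begins when cholesterol reaches the inner mitochondrial membrane, a step that needs the carrier STAR and has long been linked to the outer membrane protein TSPO. There CYP11A1, the side-chain cleavage enzyme, converts cholesterol to pregnenolone with electrons passed on by ferredoxin reductase (FDXR) and ferredoxin (FDX1). Pregnenolone is the source of progesterone, allopregnanolone, dehydroepiandrosterone and, through CYP17A1 and CYP19A1, androgens and estrogens. Steroids made within the nervous system are called neurosteroids, and in the developing rodent cerebellum Purkinje cells are a known site of their formation.

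The RefSeq promoter table lists 2 start sites for Cyp11a1, 16928 bases apart on the plus strand of chromosome 9. Both windows are shown because they belong to the member whose level differed. They run from 250 bases before to 50 bases after the start (RefSeq, build GRCm38.p6). Capitals mark matches, on either strand, to the cAMP response element TGACGTCA, its shorter core TGACG, the element CAAGGTCA bound by steroidogenic factor 1, or its core AGGTCA. The core of each pair lies within the longer element.
Cyp11a1 upstream start, chr9:57997774-57998073: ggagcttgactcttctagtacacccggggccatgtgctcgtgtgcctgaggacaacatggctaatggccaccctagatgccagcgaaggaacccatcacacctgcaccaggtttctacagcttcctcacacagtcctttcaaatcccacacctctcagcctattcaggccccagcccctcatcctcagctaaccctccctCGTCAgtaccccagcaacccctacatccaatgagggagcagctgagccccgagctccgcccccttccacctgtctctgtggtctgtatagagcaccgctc
Cyp11a1 downstream start, chr9:58014702-58015001: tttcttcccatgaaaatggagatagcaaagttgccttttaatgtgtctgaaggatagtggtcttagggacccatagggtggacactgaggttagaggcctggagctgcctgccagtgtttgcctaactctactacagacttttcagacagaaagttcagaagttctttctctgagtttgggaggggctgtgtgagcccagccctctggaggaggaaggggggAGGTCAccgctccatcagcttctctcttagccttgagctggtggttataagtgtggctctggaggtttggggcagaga
The upstream window held TGACG on the opposite strand, at base 201 of the window counted from 1, a core found in 20.8% of 32851 promoter windows of the same length. The downstream window held AGGTCA at base 223, a core found in 16.3% of them. Neither window held TGACGTCA or CAAGGTCA, which occurred in 1.79% and 1.56% of the promoter windows. The table held 9 windows for 6 of the 10 genes, and 6 of these 9 windows held none of the 4 motifs. The third window with a match was one of those of Cyp19a1, with AGGTCA on the opposite strand at base 170.

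Cyp11a1 was higher on every knockout array. Its log2 values on the wild-type arrays were 9.32, 9.45 and 9.49, and those of the knockout arrays 10.36, 10.29 and 10.35. The groups lay well apart, with a gap of 0.80 between the highest wild-type and the lowest knockout array, against a range of 0.17 within wild type and 0.067 within knockout. The means were 9.42 ± 0.09 and 10.34 ± 0.04 (SD, n = 3 each), a log2 change, knockout minus wild type, of 0.91 (SE 0.06), or 1.88-fold. By the size of its change upward Cyp11a1 stood at place 49 of the 22180 genes.

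The second probe set of Cyp11a1 gave nearly the same difference. It read 7.30, 7.56 and 7.38 in wild type and 8.42, 8.32 and 8.41 in knockout, again without overlap. Its log2 change was 0.97 (SE 0.08), or 1.96-fold, which is 0.057 above that of the first. Both come from the same RNA, and the sources used here do not say whether they share probes. When single arrays were left out, the change of the first probe set ran from 0.86 to 0.95.

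**Figure D1:**
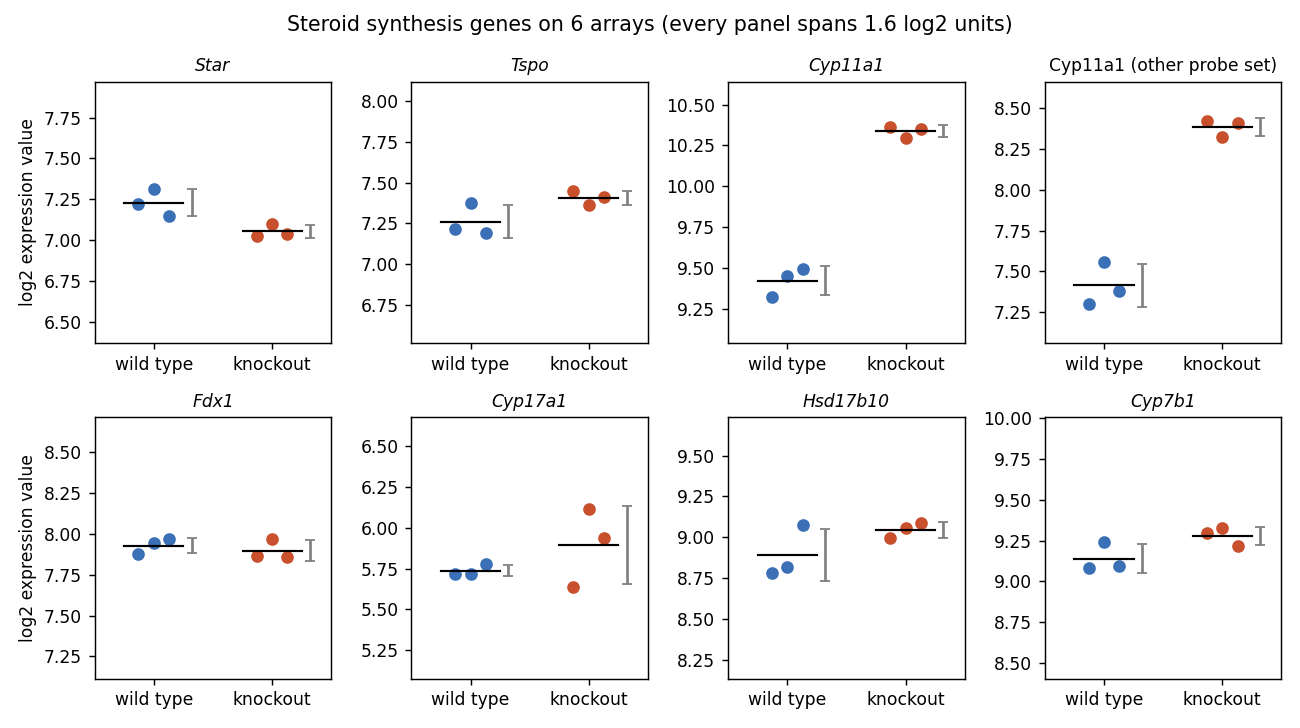
Log2 expression value (vertical axis) of the 8 probe sets on the wild-type (blue) and knockout (orange) arrays; black lines are group means and grey bars 1 SD (n = 3). Every panel spans the same height, so the step of about 1 log2 unit in both Cyp11a1 panels can be set against the small shifts of the other genes. Cyp11a1 was chosen for that step, so the contrast is a description and no test.

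None of the 6 other measured genes of the set passed limma's test at an adjusted p under 0.05, the threshold used throughout, and 1 of them, Cyp7b1, had an unadjusted p under 0.05, as did 20.4% of all genes. Over all 22180 genes 6.67% passed the adjusted threshold, 2.72% upward and 3.94% downward. The median log2 change of the 6 genes was 0.14, against -0.0028 over all genes, with 4 changes above 0 and 2 below. The largest in either direction was -0.17, and the 95% intervals of the 6 changes together reached from -0.35 to 0.44.

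Neither gene linked to the delivery of cholesterol passed. Star, the carrier that limits acute steroid synthesis in adrenal and gonad, read 7.22, 7.31 and 7.15 in wild type and 7.03, 7.10 and 7.04 in knockout. The knockout arrays all lay below the wild-type arrays, a separation shown downward by 13.1% of all genes and in either direction by 25% of them. Its log2 change was -0.17 (SE 0.08, limma adjusted p = 0.249), opposite in sign to that of Cyp11a1. Tspo, which is also a marker of reactive microglia, read 7.22, 7.38 and 7.19 in wild type and 7.45, 7.36 and 7.41 in knockout. Wild-type replicate 2 lay within the knockout values, and the change was 0.15 (SE 0.08, limma adjusted p = 0.349).

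Fdx1, the ferredoxin that hands electrons to CYP11A1 and to other mitochondrial P450 enzymes, differed between the groups by less than its error. It read 7.88, 7.95 and 7.97 in wild type and 7.86, 7.97 and 7.86 in knockout, with full overlap. The log2 change was -0.03 (SE 0.07, limma adjusted p = 0.859), with a 95% interval of -0.18 to 0.12.

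Cyp17a1, the hydroxylase and lyase that opens the route to androgens, was dim. It read 5.72, 5.72 and 5.78 in wild type and 5.64, 6.11 and 5.94 in knockout. On 5 of the 6 arrays it lay below 6.02, the 25th percentile of all values in the table, and no detection call came with the values. The knockout arrays spread on both sides of the wild-type arrays, and the change of 0.16 (SE 0.13) had a limma adjusted p of 0.560.

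The last pair of genes acts on steroids further downstream. Hsd17b10, a mitochondrial dehydrogenase that oxidises steroids and fatty acids and takes part in mitochondrial tRNA processing, read 8.78, 8.82 and 9.07 in wild type and 8.99, 9.06 and 9.09 in knockout. Wild-type replicate 3 lay among the knockout arrays, and the change was 0.15 (SE 0.08, limma adjusted p = 0.310). Without that array the change was 0.25, with an adjusted p of 0.0628. Cyp7b1, which hydroxylates oxysterols and neurosteroids such as dehydroepiandrosterone, read 9.08, 9.24 and 9.09 in wild type and 9.29, 9.32 and 9.21 in knockout. Wild-type replicate 2 lay just above the lowest knockout array, and the change of 0.14 (SE 0.06) had a limma adjusted p of 0.237.

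The other genes of steroid handling were taken from 7 lists by role, which named 99 genes outside the set, 86 of them measured. Of these 0 rose, 3 fell and 83 did not pass, against a background of 2.72% rising and 3.94% falling. At an unadjusted p under 0.05, 3 were higher and 12 lower, where over all genes 9.57% were higher and 10.9% lower. Their median log2 change was -0.02, and 36 changes lay above 0 and 50 below. The highest upward change of these lists, that of the sterol carrier gene Stard6, was 0.23 (limma adjusted p = 0.276). Cyp11a1 was chosen for its change, so its place above these genes is a description.

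**Figure D2:**
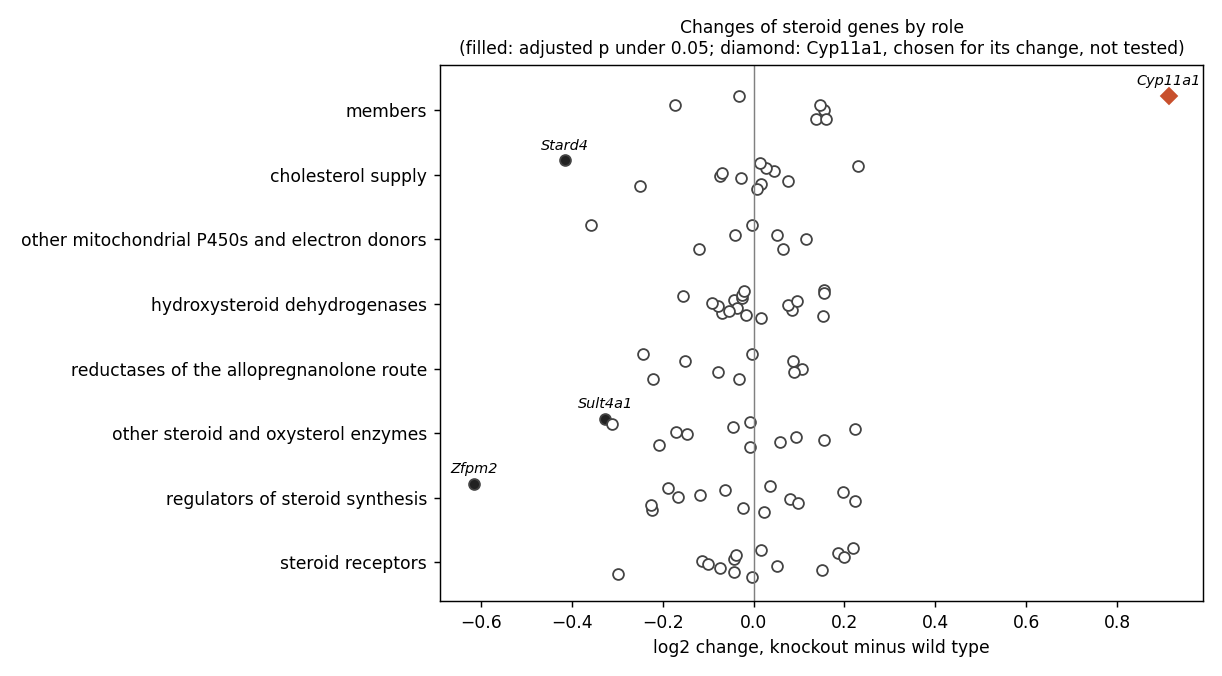
Log2 change, knockout minus wild type (horizontal axis), of the 7 measured members and of 86 other steroid genes in rows by role; filled circles passed at an adjusted p under 0.05. The diamond for Cyp11a1 at 0.91 lies far to the right of all other genes shown, which is a description, as Cyp11a1 was chosen for its change. The filled circles, Stard4, Sult4a1 and Zfpm2, lie to the left of 0.

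Among 12 genes of cholesterol supply, 0 rose and 1 fell (median 0.01). Stard4, which carries sterols through the cytosol and shares the lipid-binding fold of STAR, read 8.95, 8.996 and 8.84 in wild type and 8.62, 8.53 and 8.38 in knockout. The groups did not overlap, and it fell by 0.41 (SE 0.07, limma adjusted p = 0.0105), a 1.33-fold difference. It no longer passed without wild-type replicate 1 (adjusted p = 0.0578, change -0.402), without a trend in the prior variance (0.0522), with the choroid plexus covariate (0.0677) or without the arrays of high Ttr (0.168). This covariate is the mean of the choroid plexus markers, and the last fit, described with those markers, holds 1 knockout array, so that the wild-type arrays alone give its spread.

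Of 7 other mitochondrial P450 genes and electron donors 0 passed (median -0.0028). The smallest p was that of Cyp24a1, the vitamin D hydroxylase, with a change of -0.36 (SE 0.14, limma adjusted p = 0.172) and overlapping groups. Cyp11b1, the adrenal hydroxylase of cortisol and corticosterone synthesis and named because it had the highest change of the list, read 0.12 higher in knockout (limma adjusted p = 0.733).

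Of 18 hydroxysteroid dehydrogenases 0 passed (median -0.02), and changes ran from -0.16 to 0.16. Hsd17b4, the peroxisomal enzyme that also takes part in fatty acid oxidation, had the smallest p, with 10.76, 10.79 and 10.81 in wild type and 10.97, 10.98 and 10.86 in knockout. Its groups did not overlap, a separation shown upward by 11.8% of all genes, and the change was 0.15 (SE 0.05, limma adjusted p = 0.0931). Of this list 5 genes lay below the 25th percentile on every array, so that their changes come from dim signals.

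The next list held steroid reductases grouped around the route to allopregnanolone, the steroid that potentiates GABA receptors. Not all of them, Akr1d1 among them, are steps of that route. Srd5a2 of this list was not measured, and Srd5a1 was not analysed here, so the route was covered only in part. The list was mostly dim, with 8 of 9 measured genes below the 25th percentile on every array. Of the 9 genes 0 passed (median -0.03). Akr1c14, the rodent reductase that completes allopregnanolone, read 5.76, 5.80 and 5.74 in wild type and 5.55, 5.49 and 5.52 in knockout. These groups were apart, as downward in 13.1% of all genes, and the change of -0.24 (SE 0.09) did not pass (limma adjusted p = 0.175).

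Of 12 other steroid and oxysterol enzymes 1 fell and 0 rose (median -0.03). Sult4a1, a gene of the sulfotransferase family in neurons, was listed by family, and these data do not show that it acts on steroids. It read 10.39, 10.46 and 10.34 in wild type and 10.05, 10.16 and 9.99 in knockout. It fell by 0.33 (SE 0.06, limma adjusted p = 0.00889) with no overlap. It passed with each of the 6 arrays left out in turn, but not without a trend in the prior variance (0.0603), with the choroid plexus covariate (0.0642) or without the arrays of high Ttr (0.352).

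Of 14 regulators of steroid synthesis 1 fell and 0 rose (median -0.04). Zfpm2, the zinc finger cofactor of GATA4 that is needed in gonad development, read 10.86, 11.04 and 10.81 in wild type and 10.40, 10.31 and 10.16 in knockout. It fell by 0.61 (SE 0.08, limma adjusted p = 0.0018), a 1.53-fold difference, and passed with each of the 6 arrays left out in turn. Nr5a1, which encodes steroidogenic factor 1, the main activator of Cyp11a1 in adrenal and gonad, is named outside the rule. It read 6.96, 6.97 and 6.96 in wild type and 6.74, 6.65 and 6.83 in knockout. All knockout arrays were lower, as for 13.1% of all genes, and the change of -0.23 (SE 0.08) did not pass (limma adjusted p = 0.148). Of 14 steroid receptor genes 0 passed (median -0.02), and the smallest p was that of Paqr6, a membrane progestin receptor, at 0.22 (SE 0.07, limma adjusted p = 0.0869).

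Among all cytochrome P450 genes, a family grouped here by symbol after its values had been seen, Cyp11a1 had the second highest change of 97. Of the 96 others, 2 rose and 2 fell, with a median of -0.0083. That is 4.17% called, against 6.67% of all genes. The gene above it was Cyp4f13 at 1.12 (SE 0.10). The next below it was Cyp4f15 at 0.44 (limma adjusted p = 0.0598).

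The genes that lie next to Cyp11a1 on chromosome 9 were compared, with 2 tested genes taken on each side. Sema7a, the nearest tested gene on one side, which encodes a membrane-anchored semaphorin, rose in the knockout. It read 10.93, 10.94 and 10.88 in wild type and 11.47, 11.45 and 11.30 in knockout. The groups did not overlap, and the log2 change was 0.49 (SE 0.05, limma adjusted p = 0.000967), or 1.40-fold. It passed with each of the 6 arrays left out in turn, with adjusted p from 0.000377 to 0.00892.

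The other 3 neighbours did not pass. Ubl7, a ubiquitin-like protein gene on its far side, changed by -0.03 (SE 0.05, limma adjusted p = 0.828), with a 95% interval of -0.13 to 0.08. On the other side of Cyp11a1, Ccdc33 changed by 0.0011 (SE 0.10, limma adjusted p = 0.997), and its second probe set by -0.03. Stra6, the cellular receptor for retinol-binding protein, changed by 0.18 (SE 0.08, limma adjusted p = 0.254). The signs of Ubl7 and Ccdc33 turned under some other settings, as their changes were close to 0.

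**Figure D3:**
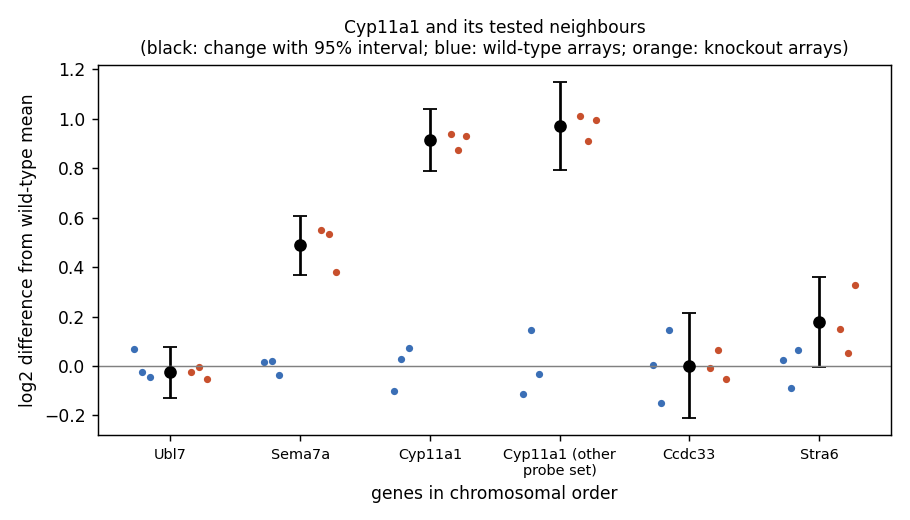
Log2 difference from the wild-type mean (vertical axis) for Cyp11a1, both probe sets, and its tested neighbours in their order on the chromosome; black points are the change with its 95% interval, small points the single arrays. Sema7a at 0.49 and Cyp11a1 at 0.91 and 0.97 stand above 0 on every knockout array, while the intervals of Ubl7, Ccdc33 and Stra6 include 0. Cyp11a1 was chosen for its change in these arrays, so its intervals are a description and no test.

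The 5 genes most like Cyp11a1 over the 6 arrays, among named genes with a range of at least 0.5, were Cfap47, Polh, Ecm2, Cxcr4 and Chrna3. Their Pearson r with Cyp11a1 ran from 0.987 to 0.993 over 6 arrays. The 6 points share the difference between the groups, which sets most of each r, so these values describe a like step and are given without a test. Chrna3, a nicotinic receptor subunit, read 11.37, 11.30 and 11.34 in wild type and 12.13, 12.14 and 12.16 in knockout. Ecm2, a matrix protein, read 7.57, 7.75 and 7.69 against 8.39, 8.32 and 8.53. Cfap47, a protein of cilia, and Polh, the translesion polymerase, differed by 0.44 and 0.47, and the chemokine receptor gene Cxcr4 by 0.70.

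Marker genes of the cell types in cerebellum were set beside Cyp11a1. En2, Zic1, Zic2, Pax6 and Eomes, listed as markers expressed in cerebellum, were all measured. Their mean log2 level was 10.83 to 11.00 in wild type and 10.74 to 10.81 in knockout. Over all genes 6.67% passed, 2.72% upward and 3.94% downward. Of these 5, Zic1, Zic2 and Pax6 fell, by 0.24, 0.25 and 0.30, Eomes rose by 0.51, and En2 changed by -0.27 without passing (limma adjusted p = 0.145). Pax6 passed with each of the 6 arrays left out in turn. Without wild-type replicate 1 the other 3 lost their calls (Zic1 0.0515, Zic2 0.149 and Eomes 0.133), and Zic2 and Eomes also did so without several of the other arrays. Of 6 granule neuron markers 5 fell and 0 rose (median -0.78), and their mean log2 level was 10.17 to 10.45 in wild type and 9.34 to 9.66 in knockout. Neurod1 was the member of this list whose call was lost when single arrays were left out, namely the first or the second wild-type array (adjusted p = 0.108 and 0.0907) or the first knockout array (0.0738). Of 5 precursor markers 1, Atoh1, rose (0.52), where 2.72% of all genes rose. The median change of the list was 0.09, with 3 changes above 0 and those of Gli1 (-0.05) and Gli2 (-0.04) below. The list mean, which includes Atoh1, was 9.51 to 9.59 in wild type and 9.64 to 9.73 in knockout. Of 6 Purkinje cell markers 0 passed (median 0.07), with list means of 10.51 to 10.60 in wild type and 10.57 to 10.66 in knockout. Calb1, the calcium-binding protein that fills these cells, changed by 0.16 (limma adjusted p = 0.0577). The part of any shift in cell make-up in the Cyp11a1 difference was not tested.

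Over all genes 2.72% rose and 3.94% fell, the shares to set beside the calls of the glial and vascular markers. Of 7 Bergmann glia and astrocyte markers 2 rose, Gfap (0.45) and Gdf10 (0.20), with list means of 10.70 to 10.74 against 10.77 to 10.90. Gfap passed with each of the 6 arrays left out in turn, while Gdf10 lost its call on leaving out the first or the third wild-type array, or the first or the second knockout array (adjusted p up to 0.147). Of 7 microglia and macrophage markers 1 rose, C1qb (0.34), with list means of 8.55 to 8.57 in wild type and 8.55 to 8.69 in knockout, beside the Tspo change of 0.15 that did not pass. The C1qb call was lost on leaving out any array but knockout replicate 3 (adjusted p up to 0.136). Of 6 oligodendrocyte markers 1 fell, Mog (0.71 lower), with list means of 9.57 to 9.66 against 8.83 to 9.54. All 6 changes lay below 0 (median -0.42). Each of the 6 had an unadjusted limma p under 0.05, where 10.9% of all genes were lower at that threshold. Mog did not pass on leaving out the first or the second wild-type array (adjusted p = 0.156 and 0.145) or the first or the third knockout array (0.112 and 0.0851). The Mog change was -0.42 with the choroid plexus covariate (adjusted p = 0.220) and -0.24 without the arrays of high Ttr (0.648). Of 6 endothelial markers and 7 pericyte and meningeal markers 0 passed, with medians of -0.0097 and 0.29. The endothelial list had 3 changes above 0 and 3 below, with 1 lower at an unadjusted limma p under 0.05. The pericyte and meningeal list had 5 above 0 and 2 below. Of these, 4 (Col1a1, Col1a2, Dcn and Lum) were higher at that threshold, as were 9.57% of all genes.

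**Figure D4:**
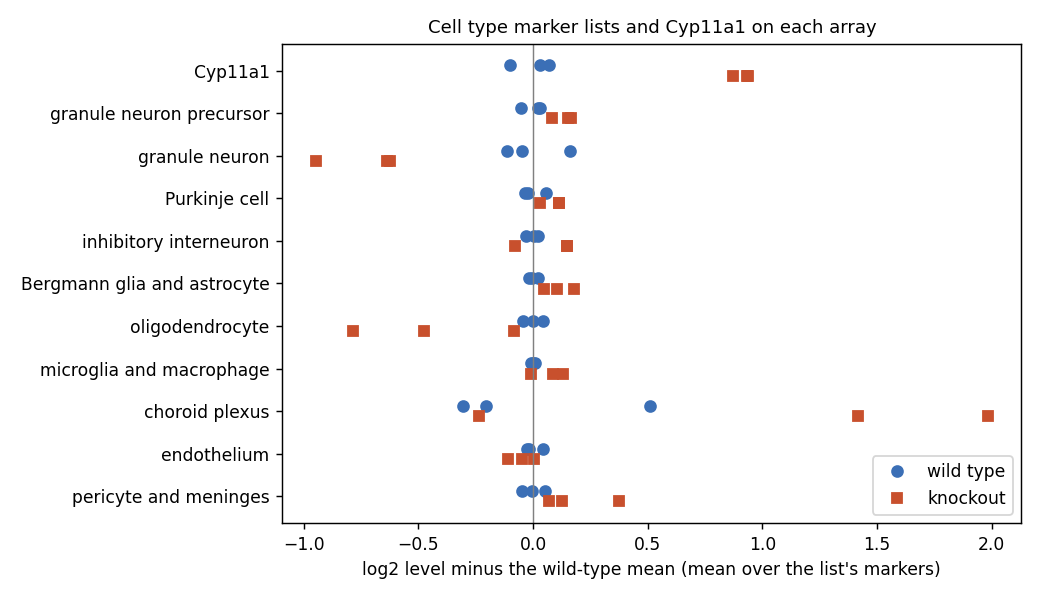
Mean log2 level of each marker list, and the level of Cyp11a1, on every array as the difference from the wild-type mean (horizontal axis); blue circles are wild-type and orange squares knockout arrays. The Cyp11a1 values form a tight cluster in each group, while the choroid plexus list spreads widely within both groups.

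Choroid plexus RNA differed strongly between arrays of a group, and partly between the groups. The list mean was 7.37 to 8.19 in wild type and 7.44 to 9.66 in knockout, and Ttr, its most abundant product, ran from 8.08 to 13.92 over the 6 arrays. Ttr lay above 10 on wild-type replicate 1 and on knockout replicates 1 and 3. Of 7 choroid plexus markers 0 passed, yet all 7 changes lay above 0 (median 0.95). Of these, 4 were higher at an unadjusted limma p under 0.05, as were 9.57% of all genes. In knockout replicate 2 Ttr read 9.19 and Cyp11a1 10.29, and in knockout replicate 3 they read 13.92 and 10.35. When the mean of the choroid plexus markers entered the fit as a covariate, the Cyp11a1 change was 0.91. Without the 3 arrays on which Ttr lay above 10, which left 2 wild-type arrays and 1 knockout array, it was 0.82. Markers of adrenal or gonadal tissue were listed as well, and most were dim. Of 7 such genes (Nr5a1, Star, Hsd3b1, Mc2r, Cyp11b1, Cyp21a1 and Cyp17a1) 0 passed, and their mean log2 level was 5.79 to 5.92 in wild type and 5.72 to 5.94 in knockout, below the 25th percentile of the table. Nr5a1 and Star alone lay above that percentile on every array. With mostly dim signals and no detection calls, the lack of a call says little about such tissue, whose presence was not tested.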

How the data were processed

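The table deposited by the authors holds 1 log2 expression value for each probe set on each array, used here as it stood. The submitters' processing notes name RMA and oligo with no version, and for the array build and any filters nothing is stated in the sources used here. Of 41345 probe sets, GEO's platform annotation gave 1 symbol to 23521, several to 1814 and none to 16010. Array medians ran from 7.25 to 7.29. No detection calls came with them, and precision is limited by how few arrays there are.

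The comparison used lmFit and eBayes (with a trend) of limma 3.58.1, run in R 4.3.3, two-sided, with Benjamini-Hochberg adjustment over 22180 genes. Tables and plots were made in Python 3.11.15 with pandas 2.3.3 and matplotlib 3.10.9. 

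Members and lists were chosen with earlier results of these data known. Named are all members, each list's genes past the threshold or its smallest p, Crebbp, 2 tested neighbours of Cyp11a1 on each side (gene order from RefSeq, GRCm38.p6) and the 5 genes most correlated with it, leaving out predicted and small RNA genes. The 3 blood markers listed were not analysed here. Alternatives were other variance priors, a filter on dim genes, centring, quantile normalization, array weights, a block on the replicate number, other probe set rules, thresholds of 0.01 and 0.1, and each array left out. The choroid plexus covariate and the fit without arrays of high Ttr were added after the data were seen. Groups of 3 arrays are too small for the check on outlying samples.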

Additional observations from a re-analysis of the deposited data

How the results depend on the processing

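The Cyp11a1 change ran from 0.86 to 0.95 with single arrays left out and was 0.82 without the 3 arrays of high Ttr. For the 6 other members 0 calls in either direction were made under any setting. The sign of Fdx1 turned with the choroid plexus covariate (0.033) and without the arrays of high Ttr (0.016). Over all genes, 184 rose and 310 fell without a trend in the prior, 287 and 331 with the choroid plexus covariate, 112 and 124 without the arrays of high Ttr, and 148 and 343 at an adjusted p under 0.01. At 0.1, 1023 rose. With single arrays left out the counts ran from 199 to 478 and from 366 to 800, and shrank by over 1.5 times on leaving out either of the first 2 wild-type replicates or knockout replicate 1.

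Of the 86 other steroid genes, 1 rose and 5 fell after repeated quantile normalization, 1 rose with array weights, 2 rose and 6 fell at 0.1, and 1 fell without a trend and without the arrays of high Ttr. With single arrays left out 0 to 1 rose and 2 to 4 fell. Hsd17b4 passed with quantile normalization (0.0362), with array weights (0.0438) and without knockout replicate 3 (0.0459), Paqr6 with the replicate block (0.0300) and without wild-type replicate 3 (0.0460), and Cyp24a1 with the covariate (0.0463).

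Same-numbered arrays did not deviate together (r of deviations -0.038, -0.015 and -0.13), so the number is not taken as a pairing. With the replicate block 723 genes rose and 1078 fell, and of the 86 genes 1 rose and 5 fell, while the Cyp11a1 change stayed 0.91. Ubl7 turned in sign with quantile normalization (0.0043) and without the arrays of high Ttr (0.031), and ran from -0.048 to 0.0081 with single arrays left out, the highest without wild-type replicate 1. Ccdc33 turned with median centring (-0.015), quantile normalization (-0.0059) and the mean of its probe sets (-0.012), and ran from -0.073 to 0.073 with single arrays left out, below 0 without wild-type replicate 2 or knockout replicate 2. The causes of these shifts were not tested. Dim genes have no detection call, which limits what their changes show.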
